A study of Mus musculus with 6 samples.

Results

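The genes described here encode the proteasome, the cytosolic chaperonin and prefoldin, the heat shock proteins with HSPA, HSPB, HSPD, HSPE or HSPH symbols, the DNAJ cochaperones, the BAG family and STIP1. They were taken from the table of all listed genes by symbol, with the biotype protein coding, which gave 47 of 4195 genes. The cells were KYSE30, an established human line of esophageal squamous cell carcinoma, of the genotype labelled WT. In 3 Control libraries and 3 libraries of cells given 100 uM acetylcholine (ACh), a transmitter that binds muscarinic and nicotinic receptors, RNA was taken at 4 h. All cells grew in medium with fetal bovine serum and antibiotics, the labels do not say what the Control cells received in place of ACh, and nothing says that replicates came from separate cultures. The p-values therefore rest on the scatter among these libraries alone, part or all of which may be technical.

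The proteasome degrades proteins tagged with ubiquitin. Its core particle is a barrel of outer alpha rings and inner beta rings, the latter carrying the protease sites, and its regulatory particle has a base with a ring of ATPases that unfold substrates and a lid that removes ubiquitin. Chaperones work at the other end of a protein's life: HSP70 proteins bind unfolded chains, DNAJ proteins deliver the chains and start ATP hydrolysis, HSP110 and BAG proteins release the nucleotide, and the cytosolic chaperonin encloses actin, tubulin and other clients that prefoldin can hand over. Part of this set is induced by the transcription factor HSF1 when proteins misfold.

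The table lists only genes with an unadjusted p under 0.05 in the authors' own comparison, and the highest was 0.049969. Each member was therefore already selected for a difference between the groups, and genes of these families outside the table have no value here. Of 48 proteasome symbols in the lists used here 22 were in the table, and of 15 symbols of the chaperonin and prefoldin 4 were, VBP1 among them, which the choice by symbol does not take in; HSPA5, HSPA8, HSPE1 and STIP1 were among the chaperone symbols without a row. Values are normalised read counts, the reads of a gene divided by one factor per library. The words rose and fell are kept for genes past an adjusted p of 0.05 both in limma, run over all 4195 genes, and in the authors' deposited table. Of 21 markers of squamous epithelium 9 were listed, with Control means between 1556 and 36058, and of 19 markers of fibroblasts, leukocytes, endothelium and gland or nerve cells 3 were, with Control means of 177 for COL1A1, 19.6 for LAPTM5 and 1064 for EGFL7. EGFL7 fell by 0.28 on the log2 scale. Its part in the results was not tested.

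The 47 genes moved both ways and by small amounts. Of them 11 rose, 19 fell and 17 missed the authors' adjusted p. All 47 passed limma, 20 with higher and 27 with lower means, so limma excluded none of them. Over all listed genes 63.8% passed both, 28.8% as rises and 35% as falls, and the share among the members, 63.8%, equalled that of the table. The largest called fall was that of HSPB1, 20.2% by the limma fold change, and the largest called rise that of DNAJB14, 24.4%. The median absolute log2 fold change of the 30 called genes amounted to 11.9% if written as a rise, and to less if written as a fall. In 45 of the 47 genes the 3 ACh libraries lay entirely above or below the 3 Control libraries, against 93% of all listed genes; the exceptions were HSPD1 and DNAJA1. The median log2 fold change was -0.114 over 22 proteasome genes, 0.082 over 3 genes of the chaperonin and prefoldin, -0.035 over 10 HSP genes and 0.16 over 10 DNAJ genes, beside -0.098 over all listed genes. With libraries scaled to equal totals over the listed genes the 19 falls became 8 while the 11 rises stayed 11. Rises went from 36.7% to 57.9% of the calls. Over all listed genes the 1470 falls became 990 and the 1207 rises stayed 1207 in number, or from 45.1% to 54.9% of the calls. The authors' adjusted p was kept from the deposited scaling. Genes that missed it, 17 of the members among them, could therefore not join the rises. The unchanged number of rises and the shift in shares follow in part from this rule. The HSP median changed sign to 0.045 with equal totals.

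**Figure D1:**
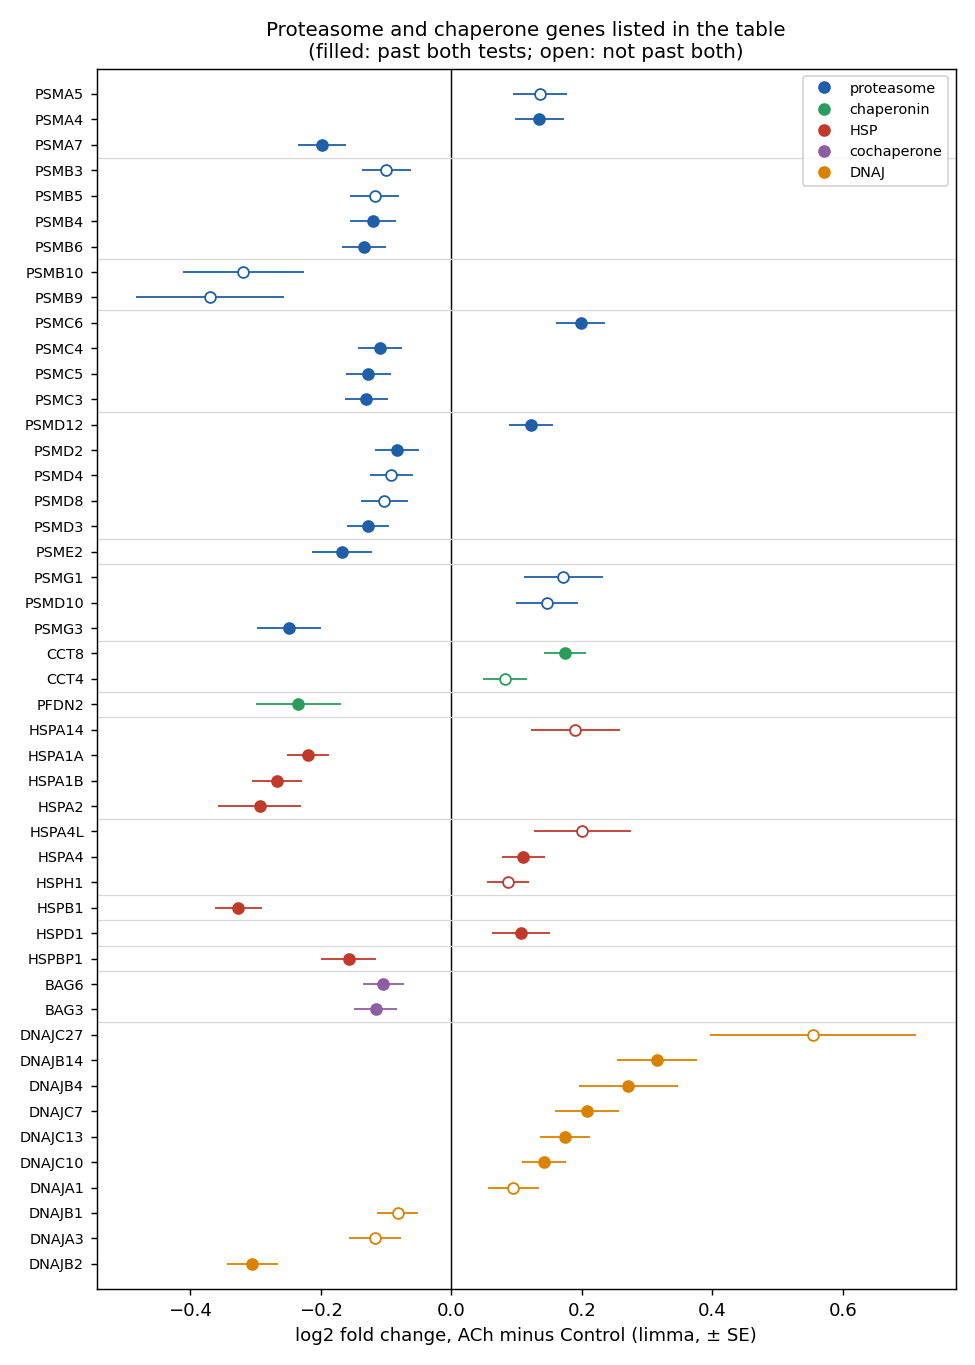
The log2 fold change (ACh minus Control, horizontal axis) of each of the 47 genes, with its standard error as a bar, grouped by complex or family from top to bottom. Filled points passed both tests and open points did not; all points of the 4 listed constitutive beta ring genes, PSMB3 to PSMB6, lie left of 0, and the 4 listed DNAJC genes lie right of it.

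Subunits of the core particle did not move together. Of the 3 listed alpha ring genes PSMA4 rose, PSMA7 fell and PSMA5 did not pass both tests. PSMA7 had normalised counts of 5730.2, 5973 and 5672 in Control against 5105, 5277 and 4777 in ACh. All ACh libraries were below all Control libraries, with a log2 fold change of -0.20 (standard error 0.037, limma adjusted p = 0.000159). PSMA4 had normalised counts of 4073, 3848 and 3779.9 in Control against 4488, 4182 and 4178 in ACh, a log2 fold change of 0.13, with all ACh libraries above all Control libraries. PSMA5 stood at 0.14 on the log2 scale, and the authors' deposited table gave it an adjusted p of 0.0596. All 4 listed genes of the constitutive beta ring had lower means in ACh, and 2 of them fell. PSMB6, which carries the caspase-like site, had normalised counts of 3115, 3050.1 and 3087 in Control against 2828, 2857 and 2749 in ACh. This was a log2 fold change of -0.13 (limma adjusted p = 0.0016) between groups that did not overlap. PSMB4, a subunit without a protease site, fell from a Control mean of 7002 ± 59.9 to an ACh mean of 6450.1 ± 332 (SD, n = 3 each), by 0.12 on the log2 scale, and by 0.077 without ACh replicate 3. PSMB5, which carries the chymotrypsin-like site that proteasome inhibitors block, and PSMB3 had log2 fold changes of -0.12 and -0.10 and did not pass both tests.

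The interferon-inducible beta subunits were the least abundant of the listed proteasome genes. PSMB9 and PSMB10 replace PSMB6 and PSMB7 in the immunoproteasome, which cuts peptides for antigen presentation. PSMB10 had normalised counts of 292, 289 and 276 in Control against 224, 215 and 248 in ACh, and PSMB9 of 247, 247 and 245 in Control against 157, 218 and 201 in ACh. In both genes every ACh library was below every Control library, but neither passed the adjusted p of the authors' deposited table (0.0525 and 0.056), with limma log2 fold changes of -0.32 and -0.37. PSMB9 overlaps TAP1, another listed gene on the opposite strand, and no source says that counting used strand, so its value is uncertain. Per kb of the gene length in the table, PSMB9 stood at 3.73%, 3.81% and 3.74% of PSMB6 in the Control libraries and at 2.61%, 3.60% and 3.45% in ACh. Replicate 1 of ACh had the lowest of these ratios.

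In the regulatory particle 4 of the 6 ATPase genes were listed, of which 1 rose and 3 fell, beside 28.8% and 35% of all listed genes. PSMC6 had normalised counts of 1807, 1873 and 1803 in Control against 2116, 2109 and 2066 in ACh, and rose by 0.20 on the log2 scale (standard error 0.037, limma adjusted p = 0.000179). PSMC3, PSMC5 and PSMC4 fell by 0.13, 0.13 and 0.11. PSMC3, the highest of them, had normalised counts of 5442, 5599.9 and 5449.8 in Control against 5015, 5210.1 and 4847 in ACh. These opposite directions depended on the scaling: with equal totals over the listed genes none of the 3 falls was called, and with the GC trend removed PSMC6 was -0.033, PSMC3 0.044, PSMC4 0.026 and PSMC5 -0.063, none of them called. Of the 5 listed genes of the lid and of the base without ATPase activity 1 rose, 2 fell and 2 stayed short of a call. PSMD12, a lid scaffold subunit, had normalised counts of 2875, 2759 and 2796 in Control against 3008, 3129 and 3036 in ACh, a log2 fold change of 0.12. PSMD3, another lid subunit, had 6311, 6493 and 6334 in Control against 5766, 5699 and 6054 in ACh, a log2 fold change of -0.13. PSMD2, the large base subunit that docks ubiquitin shuttles and the proteasome gene with the highest count, had 18074, 17763 and 17418 in Control against 17063, 16589.8 and 16629 in ACh. It fell by 0.083 on the log2 scale, a change whose limma adjusted p of 0.024 became 0.102 without Control replicate 1 and 0.0741 without ACh replicate 2. The ubiquitin receptor gene PSMD4 and the lid gene PSMD8 had log2 fold changes of -0.092 and -0.10 and did not pass both tests.

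Genes for factors that activate or build the proteasome also went both ways. PSME2, which encodes a subunit of the interferon-inducible activator cap, fell from a Control mean of 1358 ± 27 to an ACh mean of 1209 ± 50.2 (SD, n = 3 each), or -0.17 on the log2 scale. PSMG3, an assembly chaperone of the alpha ring, had normalised counts of 1091, 1167 and 1146 in Control against 938, 964 and 960.0 in ACh. Its log2 fold change of -0.25 (standard error 0.049, limma adjusted p = 0.00024) was the largest called change among the 22 listed genes with proteasome symbols. PSMG1, which acts at an early step of the same assembly, had a log2 fold change of 0.17, and PSMD10, a chaperone of the base also known as gankyrin, one of 0.15; neither passed both tests. Summed over the 22 listed proteasome genes the normalised count was 81640, 81529 and 80416 in Control and 77899, 77611 and 75450 in ACh, 5.18% lower by the means, beside 5.41% for the sum over all listed genes. These sums were not tested. With equal totals over the listed genes 2 of the 10 falls of the proteasome genes, PSMA7 and PSMG3, were kept, and the 3 rises were kept as well. With the GC trend removed PSMG3 and PSME2 lost their calls, at -0.056 and -0.055.

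Few genes of the cytosolic chaperonin system were in the table. CCT8, a ring subunit, had normalised counts of 4781, 4633 and 4626 in Control against 5278, 5415 and 5146 in ACh. It rose by 0.17 on the log2 scale (standard error 0.032, limma adjusted p = 0.000164), and the groups were apart. CCT4, from the same ring, had a log2 fold change of 0.082 and did not pass both tests, since the authors' deposited table gave it an adjusted p of 0.103. PFDN2, a prefoldin subunit, had normalised counts of 641, 606 and 603 in Control against 511, 553 and 507 in ACh. It fell by 0.23 on the log2 scale (limma adjusted p = 0.00312), opposite in direction to CCT8. VBP1, another prefoldin subunit outside the 47 genes, had normalised counts of 1185, 1144 and 1083 in Control against 1362, 1337 and 1167 in ACh and rose by 0.18 on the log2 scale, with 1 ACh library inside the Control range; it is named after its value was seen. With the GC trend removed VBP1 lost its call and changed sign to -0.041, while CCT8 stood at -0.025 and PFDN2 at -0.36, so that the opposite directions of CCT8 and PFDN2 were not kept.

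Among the 10 HSP genes there were 2 rises, 5 falls and 3 genes short of a call. The share called was 70%, beside 63.8% of all listed genes, of which 28.8% rose and 35% fell. The means of the 3 HSP110 genes were higher in ACh and those of 3 of 4 HSP70 genes lower, a difference between classes that was not tested; with the GC trend removed all 3 HSP110 genes were below 0, and 2 HSP70 genes were above and 2 below. HSPA1A and HSPA1B encode the stress-inducible HSP70 and lie beside each other on chromosome 6, at 31815464 to 31817946 and 31827735 to 31830255 in the coordinates of the table, whose human build is not given in the sources used here. HSPA1A had normalised counts of 5906, 5863 and 5783 in Control against 4992, 5177 and 4907 in ACh, and HSPA1B of 3430.2, 3547 and 3651 in Control against 2841, 2885 and 3108 in ACh. They fell by 0.22 and 0.27 on the log2 scale, with limma adjusted p = 1.78e-05 and 1.46e-05. The 2 genes are near-identical in their coding sequence, so reads could be split between them in either way and their separate values are uncertain. HSPA2, another HSP70 gene, known best from the testis, fell from a Control mean of 1153 ± 53.8 to an ACh mean of 944 ± 101 (SD, n = 3 each) by 0.29; ACh replicate 2 was its lowest library at 828. HSPA14, an HSP70-like protein at the ribosome, had a log2 fold change of 0.19 and did not pass both tests.

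HSPB1, the small heat shock protein HSP27, holds unfolded proteins without using ATP. It was measured at 5887, 6041 and 5804 in Control against 4919, 4461 and 4772 in ACh normalised counts. The groups did not overlap, with a log2 fold change of -0.33 (standard error 0.036, limma adjusted p = 1.21e-06). The gene, ENSG00000106211, lies on chromosome 7 from 76302544 to 76304295. The 3 HSP110 genes, whose products release nucleotide from HSP70, had higher means in ACh. HSPA4 had normalised counts of 5905, 5874 and 5874 in Control against 6499, 6458 and 6105 in ACh and rose by 0.11 on the log2 scale (limma adjusted p = 0.00448). HSPA4L and HSPH1 stood at log2 fold changes of 0.20 and 0.087 without passing both tests.

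HSPD1, the mitochondrial chaperonin, had the highest normalised count of the 47 genes, with 29694, 31359 and 29477 in Control against 32896, 33991 and 30646 in ACh. Control replicate 2 was above ACh replicate 3, so the groups overlapped, and the log2 fold change of 0.11 (limma adjusted p = 0.0246) lost its call when any one of Control replicates 1 and 3 or ACh replicates 1 and 2 was left out, where it was 0.0739 to 0.0975. It overlaps MOB4, another listed gene on the opposite strand. HSPBP1, a nucleotide exchange factor of HSP70, fell from a Control mean of 2162 ± 91.2 to an ACh mean of 1939 ± 84 (SD, n = 3 each), or -0.16 on the log2 scale. It lost its call with equal totals, at -0.077, and with a trend in gene length removed, at -0.030, and changed sign to 0.088 with the GC trend removed. Summed over the 10 HSP genes the normalised count was 61010, 63177 and 60800 in Control and 62592, 63430 and 59752 in ACh, so the sums overlapped; HSPD1 made up the largest part of each.

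**Figure D2:**
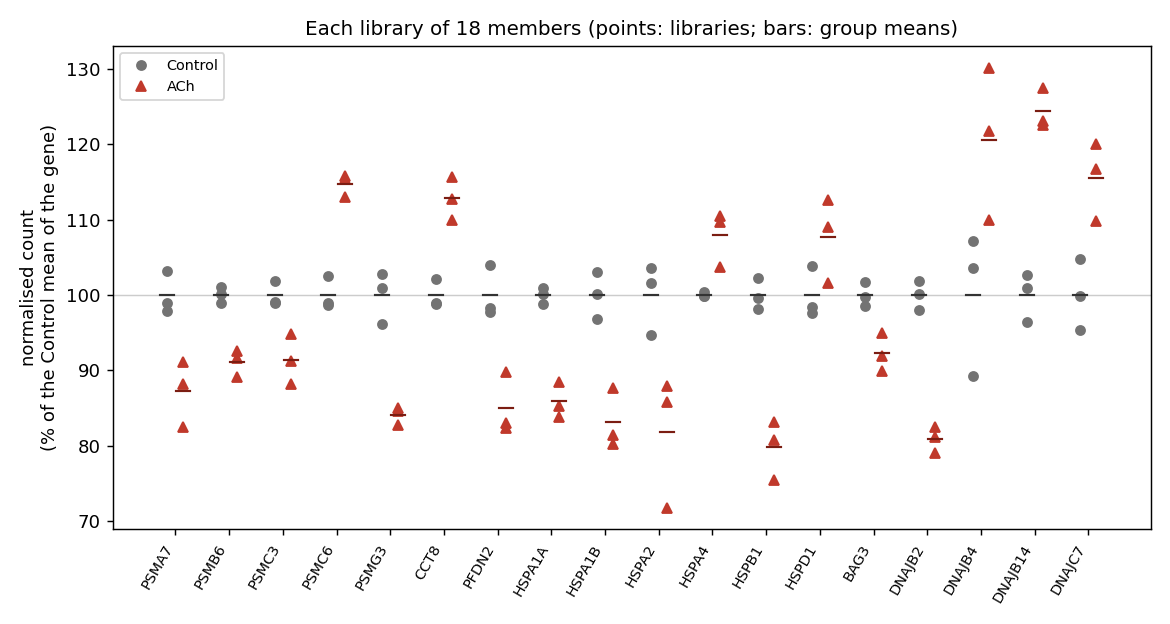
Normalised counts of selected members in each library, as a percentage of the gene's Control mean (vertical axis); grey circles are Control libraries, red triangles are ACh libraries and short bars are group means. The ACh triangles of HSPB1 and DNAJB2 sit below every Control circle and those of CCT8, PSMC6 and DNAJB14 above, while those of HSPD1 reach into the Control range.

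Both listed BAG genes fell, beside 35% of all listed genes. BAG3, which links HSP70 to selective autophagy, had normalised counts of 5299, 5472 and 5364 in Control against 5109, 4833 and 4947 in ACh. BAG6, which guards membrane proteins before insertion, had 6425, 6621 and 6527 in Control against 6166, 5926 and 6112 in ACh. Their log2 fold changes were -0.12 and -0.10, with no overlap of the groups, and both lost their calls with equal totals over the listed genes, at -0.036 and -0.025.

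Among the 10 DNAJ genes 5 rose, 1 fell and 4 stayed short of a call. The share called was 60%, beside 63.8% of all listed genes, of which 28.8% rose and 35% fell. DNAJB14, an HSP70 partner anchored in the membrane of the endoplasmic reticulum, had normalised counts of 563, 529 and 554 in Control against 699, 672 and 675 in ACh. Its log2 fold change was 0.31 (standard error 0.061, limma adjusted p = 0.000234), and all ACh libraries were above all Control libraries. DNAJB4, a cytosolic relative of DNAJB1, had 583, 604 and 503 in Control against 686, 733 and 619 in ACh. DNAJC7, which binds both HSP70 and HSP90 through its repeat domains, had 1112, 1166 and 1222 in Control against 1400.5, 1362 and 1282 in ACh. These genes rose by 0.27 and 0.21 on the log2 scale, and their groups did not overlap. DNAJC7 overlaps CNP, another listed gene on the opposite strand. DNAJC13, which acts on endosomes, and DNAJC10, a disulfide reductase of the endoplasmic reticulum, rose by 0.17 and 0.14. With the GC trend removed DNAJB14 and DNAJB4 lost their calls, at 0.11 and 0.041. DNAJC13 and DNAJC10 changed sign to -0.0083 and -0.044, and DNAJC7 alone of the 5 rises kept its call.

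DNAJB2, which carries ubiquitin-interacting motifs and sorts chaperone clients to the proteasome, was the DNAJ gene that fell. It had 1886, 1962 and 1928 in Control against 1563, 1523 and 1588 in ACh normalised counts, a log2 fold change of -0.31 (standard error 0.039, limma adjusted p = 5.87e-06). The groups were apart. The main cytosolic HSP70 partners DNAJB1 and DNAJA1 had log2 fold changes of -0.083 and 0.095, and the mitochondrial DNAJA3 one of -0.12; none of the 3 passed both tests. DNAJB1 overlaps TECR, another listed gene on the opposite strand. DNAJC27, the lowest member, had normalised counts of 80.9, 58.9 and 68.3 in Control against 94.4, 96.2 and 115 in ACh. Its log2 fold change of 0.55 was the largest of the 47, but the authors' deposited table gave it an adjusted p of 0.052, just outside the limit, while PSMC4 lay just inside it at 0.041.

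Levels between genes were compared per kb of gene length. In Control, HSPD1 had the highest normalised count per kb of the 47 genes, at 7109, followed by HSPB1 at 3617, PSMA7 at 3310, PSMD2 at 3255 and PSMB4 at 3245. The lowest were DNAJC27 at 12.3, HSPA4L at 35.3, DNAJB14 at 41.9 and PSMB9 at 80.1. The genes with higher means in ACh were longer than those with lower means, with a median length of 5494 against 2521 bases, beside 6745 against 4062 bases over all listed genes.

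The direction of change varied with base composition. GC content was taken from the mouse gene with that symbol, found for all 47 members, since no human sequence was used here. The members with higher means in ACh had a median GC content of 45.2% and those with lower means one of 55.1%, beside 44.2% and 56.6% over all listed genes with a value. All 10 members of lowest GC content (37.0% to 45.1%) had higher means in ACh, and all 10 of highest (56.3% to 61.7%) had lower means. Across the 47 genes the Spearman correlation of GC content with the log2 fold change was -0.78, and across 3676 listed genes it was -0.76; genes share the 6 libraries and are not independent. HSPB1, with 61.7%, had the highest GC content of the members and PSMC6, with 37.0%, the lowest.

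**Figure D3:**
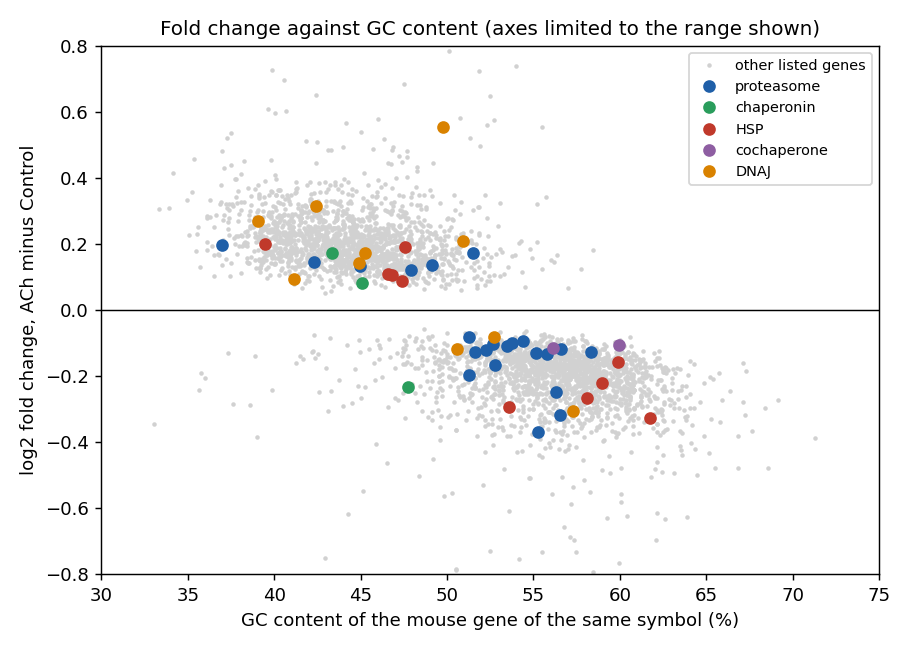
The log2 fold change (vertical axis) against GC content taken from the mouse gene with that symbol (horizontal axis, percent), for the 47 members in colour and the other listed genes in grey; listed genes outside the axes are not drawn. The members lie along the same slope as the grey points, and the empty band around 0 is the cut at an unadjusted p of 0.05.

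After removal of the GC trend in each library, 3 of the 30 called members kept their call, 12 lost it with the same sign and 15 changed sign. Of 2460 called genes in the table with a GC value 13.4% kept their call, 47.5% lost it with the same sign and 39.1% changed sign. Over all listed genes with a GC value 10.7% then passed both tests, 4.9% above and 5.82% below 0, and 5 of the 47 members did, 3 above and 2 below. The authors' adjusted p was not recomputed for these counts. It belongs to the direction of the deposited scaling, so it gives a changed sign no backing. PSMA7 and PFDN2 stayed lower, at log2 fold changes of -0.15 and -0.36 (limma adjusted p = 0.00432 and 0.000203), and DNAJC7 stayed higher at 0.24 (limma adjusted p = 0.000779). Of these 3 genes PSMA7 and DNAJC7 lost their calls when a trend in gene length was removed in place of GC, at -0.057 and 0.10, and PFDN2 kept its call at -0.34. PSMD3 and BAG6 turned from falls to values above 0, 0.10 and 0.14, that passed limma (limma adjusted p = 0.0176 and 0.00116). Their authors' adjusted p belongs to the falls, so only limma backs the values above 0. The inducible and small heat shock genes came close to 0, with HSPA1A at 0.016, HSPA1B at -0.039 and HSPB1 at -0.051. HSPA2 and DNAJB2 stood at -0.15 and -0.09, and the rises of CCT8, PSMC6, HSPA4 and HSPD1 at -0.025, -0.033, -0.051 and -0.047, none of them called. With the replicate number as a block in the same model HSPA2 was called (limma adjusted p = 0.0189). DNAJC27 and PSMG1, which had not passed the authors' adjusted p, had values of 0.52 and 0.23 (limma adjusted p = 0.0173 and 0.0073). The medians were -0.012 for the proteasome, -0.10 for the chaperonin with prefoldin, -0.043 for HSP and 0.0092 for DNAJ, beside 0.0088 for all genes with a value.

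**Figure D4:**
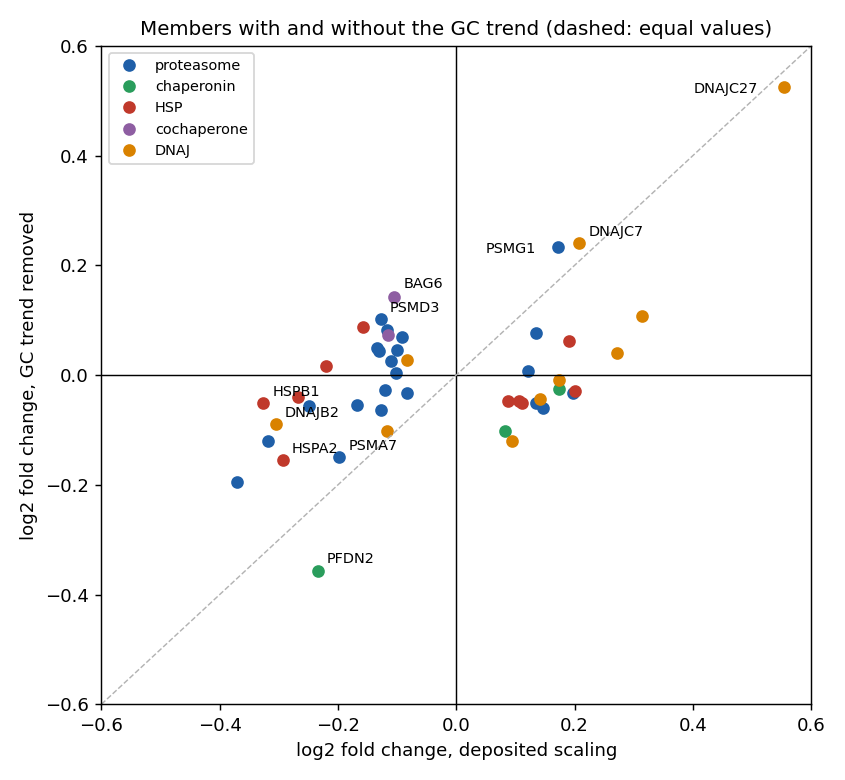
The log2 fold change of each member with the deposited scaling (horizontal axis) and after removal of the GC trend (vertical axis); the dashed line marks equal values. Most members move toward 0, with HSPB1 going from -0.33 to -0.051, while PSMA7, DNAJC7 and PFDN2 stay near the line or go beyond it.

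Genes that work with these complexes but do not carry their symbols were read from 8 lists of 117 genes, of which 58 were in the table. Among them were 13 rises and 27 falls, with 18 genes short of a call. Of all listed genes 28.8% rose and 35% fell. HSP90 and its cochaperones had 12 listed genes, of which 2 rose and 4 fell. HSP90AA1, the inducible cytosolic HSP90, rose from a Control mean of 28122 ± 518 to an ACh mean of 30260.1 ± 1553 (SD, n = 3 each) and HSP90B1, its relative in the endoplasmic reticulum, by 0.092 on the log2 scale, and in both the groups overlapped. HSP90AA1 lost its call without any one of Control replicates 1 and 3 and ACh replicates 1 and 2, and HSP90B1 without Control replicate 3, ACh replicate 1 or ACh replicate 2, with the smallest values, 0.0704 and 0.0605, without ACh replicate 2. With the GC trend removed HSP90AA1 was at -0.090 and HSP90B1 at -0.10, the latter past limma in the opposite direction (limma adjusted p = 0.0349). The authors' adjusted p of HSP90B1 belongs to its rise. STUB1, a ubiquitin ligase that binds HSP70 and HSP90, fell from a Control mean of 2059.6 ± 76 to an ACh mean of 1586 ± 25.2 (SD, n = 3 each), by 0.38 on the log2 scale. Removal of the GC trend brought STUB1 to -0.12, where it kept its call (limma adjusted p = 0.0309). HSF1, the factor that drives heat shock genes, was the only listed gene of the 4 in its list and fell from a Control mean of 3152 ± 115 to an ACh mean of 2658 ± 120.0 (SD, n = 3 each), by 0.25. With the GC trend removed HSF1 lost its call and stood at -0.022.

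Falls made up 35% of all listed genes and rises 28.8%. Of 12 listed genes for ubiquitin, its activation, shuttles and the segregase VCP, 9 fell and none rose past both tests (3 higher means, not called). With equal totals over the listed genes 3 of them were called lower, and VCP stood at -0.019 and UFD1 at -0.097 without a call. UBB, a polyubiquitin gene, had normalised counts of 11529, 11684 and 11371 in Control against 9464, 9462 and 9099 in ACh, a log2 fold change of -0.30 (limma adjusted p = 7.83e-07). The groups did not overlap. UBB, VCP and UFD1 were among the genes that kept their calls with the GC trend removed, at -0.15, -0.12 and -0.33. Of 7 listed proteasome-associated genes and regulators 4 rose and 1 fell. ADRM1, which encodes a ubiquitin receptor of the regulatory particle, fell by 0.35 on the log2 scale, a larger called change than that of PSMG3. Its Control mean was 2531 ± 122 and its ACh mean 1981 ± 98.8 (SD, n = 3 each). UCHL5, the deubiquitinase that ADRM1 binds, rose by 0.23 on the log2 scale. NFE2L2, an oxidative stress factor, rose by 0.14; of these, ADRM1 and UCHL5 lost their calls with the GC trend removed, at -0.10 and 0.004, and NFE2L2 changed sign to -0.018.

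Folding factors of the organelles went both ways. In the endoplasmic reticulum list 3 of 11 listed genes rose and 4 fell, with the oxidase gene ERO1A at a log2 fold change of 0.25, SEL1L, of the degradation pathway, at 0.25, and the chaperone genes CALR and SDF2L1 at -0.16 and -0.23. CALR kept its call with the GC trend removed, at -0.18, and lost it with the length trend removed, at -0.052. In the mitochondrial list 1 of 6 rose and 4 fell. GRPEL2, an exchange factor of the mitochondrial HSP70, rose by 0.26. TIMM44, which ties that HSP70 to the import channel, fell from a Control mean of 1011 ± 15.3 to an ACh mean of 802 ± 27 (SD, n = 3 each), by 0.33 on the log2 scale. With the GC trend removed TIMM44 kept its call, at -0.24. Of 7 listed cofactors of tubulin and the chaperonin 2 rose and 3 fell, with RPAP3 and TXNDC9 at 0.28 and 0.27 and ARL2 and TBCB at -0.26 and -0.16. Of the genes acting on nascent chains SRP9 rose by 0.22 and GET4 fell from a Control mean of 335 ± 13.9 to an ACh mean of 260.0 ± 29.9 (SD, n = 3 each). With the GC trend removed SEL1L, SDF2L1, GRPEL2, RPAP3, TXNDC9, ARL2, SRP9 and GET4 lost their calls. They stood at 0.12, -0.029, 0.088, 0.18, 0.043, -0.026, 0.035 and -0.17. TBCB changed sign to 0.029, and ERO1A had no GC value. Of the 39 called genes of these lists with a GC value 9 kept call and sign with the GC trend removed, or 23.1%, beside 13.4% of all called genes with a value; these shares were not compared by a test.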

How the data were processed

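RNA-seq values of KYSE30 cells came from one deposited table with 3 Control libraries and 3 libraries of cells given 100 uM ACh for 4 h. The library kit was SMARTer mRNA-seq (per the labels' protocols). Bowtie 0.12.2, mm8 and mm10 are named in the submitters' processing notes, and mouse is the labelled organism, yet 4183 of 4195 gene IDs are human. Human build, counting tool and strandedness: not given in the sources used here. The deposited values are a signal, read counts that the authors divided by a library factor. All values above 0 in a library were whole multiples of its step (0.768 to 1.13 over the libraries), with a tolerance of 0.1 step. Listed genes summed to 10519515 to 11468978 normalised counts per library, and the total depth is unknown. Per the file headers, the log2 fold changes, p-values and adjusted p-values are those of the authors; the latter correspond to 11193 tests, and 234 were exactly 1.

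Values were tested as log2(value + 1) with limma 3.58.1 (limma-trend, R 4.3.3) and group as the only term, over all 4195 genes with Benjamini-Hochberg adjustment; a log2 fold change is the difference of the group means. The design had allowed for count tests, which were not run because too few low values per Control library were left to establish whole reads. The limma script was tested on simulated data. A call needed an adjusted p under 0.05 in limma and in the authors' table. In the alternatives the authors' adjusted p stayed as deposited, whatever the new direction. As the table was selected for a difference, limma adds no independent support to the authors' call. The members and lists were chosen with earlier results of these data known, and lists are described by counts and medians. Library values are given for up to 3 called genes per direction and list with groups that did not overlap, or else the gene with the largest mean; other members were added to account for all 47, and of the related lists up to 2 called genes per direction. VCP and UFD1 were named after their values were seen, and 1 gene of the related lists is not reported here. GC content was computed on the longest coding transcript that GENCODE M21 gives for the mouse symbol, and was regressed out per library by local regression (span 0.3). Alternatives were other pseudocounts, a filter on low values, equal totals, a replicate block, each library left out, other call rules and, chosen after seeing the data, removal of a gene length trend. Software: Matplotlib 3.10.9, NumPy 2.4.6, pandas 2.3.3, SciPy 1.17.1 and Python 3.11.15.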

Additional observations from a re-analysis of the deposited data

How the results depend on the processing

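The counts of 11 members that rose and 19 that fell stayed within 1.5 times under both other pseudocounts, the filter on low values, protein-coding nuclear genes only, adjustment over the tests the authors made and the authors' adjusted p alone. With the GC trend removed 3 were counted above 0 and 2 below. PSMD3 and BAG6, among those above, passed only limma in that direction. With equal totals over the listed genes 8 fell, with the length trend removed 11 fell, and by limma alone 20 were called higher and 27 lower. Equal totals raised the median log2 fold change of all genes by 0.08. The labels number the libraries within each group and do not pair Control with ACh libraries. Deviations from the group means correlated by 0.0471 to 0.0821 between libraries of the same number. Between libraries of different numbers they correlated by -0.0686 to 0.0171, so each library correlated best with its own number. Whether the libraries were paired was not tested. With the replicate block every call of the members was kept. With the replicate block and the GC trend removed 3 were counted above 0, again with PSMD3 and BAG6, and 3 below. That fit kept the calls of HSPA2, ADRM1 and RPAP3, which were lost with the GC trend removed alone. When each library was left out in turn, 10 to 11 members rose and 18 to 19 fell. The edgeR and DESeq2 alternatives were not run.

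The proteasome median of the log2 fold change was -0.034 with equal totals, -0.012 with the GC trend removed (also with the replicate block) and -0.0092 with the length trend removed, and -0.13 to -0.093 with 1 library left out. The chaperonin and prefoldin median was 0.16 with equal totals, 0.18 with the length trend removed and -0.10 with the GC trend removed (also with the replicate block). The HSP median was 0.045 with equal totals and -0.19 with the filter on low values, which took out HSPA14 and HSPA4L, and it was -0.049 to -0.011 with 1 library left out. The DNAJ median was 0.24 with equal totals, 0.0092 with the GC trend removed (also with the replicate block) and 0.085 with the length trend removed. The cause was not tested.

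With the GC trend removed the sign of 31 named genes changed, with or without the replicate block. The log2 fold change became PSMB6 0.0499, PSMC3 0.0439, PSMC4 0.026, PSMD3 0.102, HSPA1A 0.0161, HSPBP1 0.0882, BAG6 0.141, BAG3 0.0735, SGTA 0.05, TBCB 0.0292, PSMB3 0.0458, PSMB5 0.0824, PSMD4 0.0692, PSMD8 0.0046 and DNAJB1 0.0267 in genes with lower means, and PSMA4 -0.0501, PSMC6 -0.0333, PSMD10 -0.0606, CCT8 -0.0245, CCT4 -0.102, HSPA4 -0.0506, HSPH1 -0.0478, HSPD1 -0.0471, HSP90AA1 -0.0902, HSP90B1 -0.102, NFE2L2 -0.0183, VBP1 -0.0406, HSPA4L -0.0283, DNAJC13 -0.0083, DNAJC10 -0.044 and DNAJA1 -0.121 in genes with higher means. With the length trend removed the values were PSMB4 0.0078, PSMC4 0.0152, HSPH1 -0.0032, PSMB5 0.0224 and DNAJC10 -0.0311. The cause was not tested, and the GC content is that of mouse genes. Precision is limited by 3 libraries a group and, for DNAJC27, by counts under 120.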

Other observations

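Summed over HSPA1A, HSPA1B, HSPA2 and HSPA14, the 4 listed HSP70 genes, the normalised count was 11007, 11018 and 11095 in Control and 9395, 9467 and 9568 in ACh, 14.2% lower by the means. Such a sum does not depend on how reads are divided between HSPA1A and HSPA1B. The ratio of HSPA1B to HSPA1A was 0.581, 0.605 and 0.631 in Control and 0.569, 0.557 and 0.633 in ACh, so these ratios overlapped. Summed over the 3 HSP110 genes the normalised count was 12255, 12507 and 12355 in Control and 13375, 13549 and 12921 in ACh, 7.35% higher by the means. The HSP70 genes that fell had GC contents of 53.6% to 58.9% and the HSP110 genes 39.5% to 47.4% in the mouse genes of the same symbols. The sum over all listed genes was 5.41% lower in ACh. With the GC trend removed the median log2 fold change was -0.012 over the HSP70 genes and -0.048 over the HSP110 genes. The sums were not tested.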
